A study of Mus musculus with 6 samples.

Results

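The circadian clock genes described here are Bmal1, Clock, Per1, Per2, Per3, Cry1, Nr1d1, Nr1d2, Dbp and Tef. They were chosen by name, and all 10 were found among the 56884 mouse genes of the deposited count table. RNA came from livers of male athymic BALB/c (nu/nu) mice that carried cells of a human hepatocellular carcinoma (HCC) line in the liver, implanted at 6 weeks of age. Every mouse received an adeno-associated virus (AAV8) by the tail vein 1 week after implantation and was followed for 3 more weeks. In 3 libraries, labelled siControl (genotype WT, control AAV), the virus carried a control siRNA. In the other 3, labelled siAATF (genotype KD, siAATF AAV), it carried an siRNA against mouse Aatf, driven by the TBG promoter, which is active in hepatocytes. These mice lack a functional thymus and mature T cells. The animals were kept in a light-dark cycle, and the hour at which each liver was taken is not given in the sources used here.

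The clock is a feedback loop of transcription factors that runs in nearly every cell. The proteins of Bmal1 and Clock pair and activate genes with E-boxes, among them the Per and Cry genes, whose products return to the nucleus and block the pair. Nr1d1 and Nr1d2 encode the nuclear receptors REV-ERBα and REV-ERBβ, which repress Bmal1 at sequences called ROREs, while Dbp and Tef encode PAR bZIP factors that act on D-boxes. In liver, the transcripts of Dbp, Nr1d1 and the Per genes are known for large daily changes in level, with Bmal1 in the opposite phase, and the clock times bile acid, lipid and glucose metabolism.

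Promoters of the members were searched for motifs known from the clock. A window of 250 bases before to 50 bases after the transcription start of the Ensembl canonical transcript was read from the GRCm39 genome for all 10 members and for 21770 protein-coding genes in all. Both strands were searched for the E-box (CACGTG), the E′-box (CACGTT), the D-box (TTATGTAA or TTACGTAA), the cAMP response element (TGACGTCA) and the RORE. At least one match stood in 7 of the 10 members, and no match overlapped another. The stretches below are shown since they hold the matches before the start sites, which are in capitals (5′ to 3′ on the strand of the gene, as read from the reference genome).
Dbp, RORE, chr7:45354299-45354349, plus strand: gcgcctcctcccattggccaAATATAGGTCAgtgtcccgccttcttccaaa
Tef, E-box, chr15:81695457-81695502, plus strand: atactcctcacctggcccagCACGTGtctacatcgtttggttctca
Per1, E-box, chr11:68989226-68989267, plus strand: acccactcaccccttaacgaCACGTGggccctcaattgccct
Per2, D-box, chr1:91387144-91387191, minus strand: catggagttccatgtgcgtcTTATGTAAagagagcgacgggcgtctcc
Per3, D-boxes, chr4:151129253-151129347, minus strand: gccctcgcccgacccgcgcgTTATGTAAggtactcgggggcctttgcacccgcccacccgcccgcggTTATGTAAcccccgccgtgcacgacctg
Cry1, E′-box on the other strand and E-box, chr10:85020953-85021017, minus strand: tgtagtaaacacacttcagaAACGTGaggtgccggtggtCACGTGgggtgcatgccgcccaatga
Nr1d1, E′-box on the other strand, chr11:98666206-98666251, minus strand: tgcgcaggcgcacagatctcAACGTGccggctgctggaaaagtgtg

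The E-box stood in the windows of 3 members (Tef, Per1 and Cry1) and in 7.81% of all 21770 windows. The E′-box stood in 3 members (Per2, after its start, Cry1 and Nr1d1) and in 4.99% of all windows. TTATGTAA stood in Per2 and at 2 places in Per3, and in 0.937% of all windows. The RORE stood in Dbp and in 0.326% of all windows. TTACGTAA and the cAMP response element, in 0.138% and 2.44% of all windows, were found in 0 members. Bmal1, Clock and Nr1d2 held none of these letters in the window, which says nothing of sites elsewhere. A match of letters describes the sequence and is not evidence of binding.

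The depth of mouse RNA differed between the groups and limits what can be seen of these genes. Levels are given in CPM, counts scaled to the TMM-adjusted mouse total of a library. Mouse counts were 213022 to 913584 in siControl libraries and 11835898 to 42563694 in siAATF libraries, and made up 0.778% to 1.93% and 97.9% to 99.0% of the counts of both species. Values of single libraries are listed in the order of replicates 1, 2 and 3 throughout. The 10 members together held 127, 32 and 149 counts in the siControl group and 4810, 685 and 3636 counts in the siAATF group. In siControl replicate 2, 7 of the 10 members had at most 3 counts. A gene at 0 counts may still reach 3 counts, which corresponds to 1.67 to 7.25 CPM in the siControl and 0.104 to 0.605 CPM in the siAATF group, a limit that covers counting error only. Aatf, the siRNA target, had 9.63, 2.42 and 12.8 CPM in siControl and 13.3, 22.0 and 18.9 CPM in siAATF (log2 fold change 0.93, SE 0.47, adjusted p = 0.152). Scaled by library size alone, it had 17.1, 4.69 and 25.2 CPM in siControl and 9.02, 9.21 and 9.72 CPM in siAATF. The direction between the groups thus depended on the scaling, and with library size alone they overlapped. A lower Aatf level in the libraries labelled siAATF was not shown by the test.

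The cell types behind the mouse RNA differed too. All 11 hepatocyte markers that could be found, of 12, were higher in siAATF, with sums of 3409 to 9175 CPM over the siControl libraries against 41327 to 119540 CPM over the siAATF libraries. With library size alone 8 of the 11 passed, all higher, and Apob, Fgb and Ahsg did not (adjusted p = 0.0818, 0.236 and 0.279). Without siAATF replicate 3 the log2 fold change of Fgb was 1.60, against 3.12 with it, and did not pass. Fibroblast markers fell in 9 of 10 (8746 to 12840 against 346 to 542 CPM), macrophage and leukocyte markers in 7 of 8 (1517 to 3216 against 78.7 to 250.3 CPM) and endothelial markers in 6 of 8 (472 to 836 against 58.5 to 204 CPM). Of 5 cholangiocyte markers tested, 2 fell (1142 to 2310 against 74.8 to 77.9 CPM). Without Spp1, which made up most of that sum, the other 4 came to 16.9 to 38.5 CPM in siControl libraries against 31.6 to 41.4 CPM in siAATF libraries. Krt19 and Krt7, 2 defining ones, were at 0 counts in siControl replicate 2, as Epcam was in siAATF replicate 2. Hepatocyte markers were present in every library, and the label is liver. In siControl, however, mouse counts were at most 1.93% of the counts of both species. There hepatocyte markers summed to 9175, 3409 and 3720 CPM in replicates 1 to 3, against 8746, 12410 and 12840 CPM of fibroblast markers. The presence of these markers thus does not show that the siControl libraries are mainly liver. The part of the cell type differences between the groups in the clock genes was not tested. In bulk tissue, fewer cells of a type and less RNA per cell cannot be told apart.

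Of the 10 clock genes, 2 were higher in siAATF (Tef and Clock), 0 were lower, and 8 did not pass the test. Each adjusted p below comes from the quasi-likelihood test of edgeR, corrected by the Benjamini-Hochberg method across the 18018 mouse genes tested, and 0.05 was the threshold. The labels do not say whether libraries of a group came from separate mice, so each p measures only the spread between these libraries. Over all genes, 32.0% passed in either direction, 17.6% higher and 14.4% lower in siAATF, so the members' 2 of 10 is near the background. The groups did not overlap in CPM for 4 members (Tef, Clock, Per2 and Per3), against 52.7% of all genes. By the criteria of the study, an unadjusted p under 0.05 and an absolute log2 fold change of at least 2, 0 members passed, against 26.7% of all genes. The median log2 fold change was 1.05 over the members and 0.50 over all genes. When libraries were scaled by their mouse totals alone, these medians were -0.72 and -1.30, and 747 of 8023 genes that passed were higher in siAATF, against 3169 of 5762 with TMM. Relative to the median of all genes, the members' log2 fold changes with TMM were -0.94 for Per1, -0.63 for Nr1d2, -0.46 for Dbp, 0.27 for Cry1, 0.35 for Bmal1, 0.74 for Clock, 0.98 for Nr1d1, 1.07 for Per2, 1.35 for Per3 and 1.43 for Tef.

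**Figure D1:**
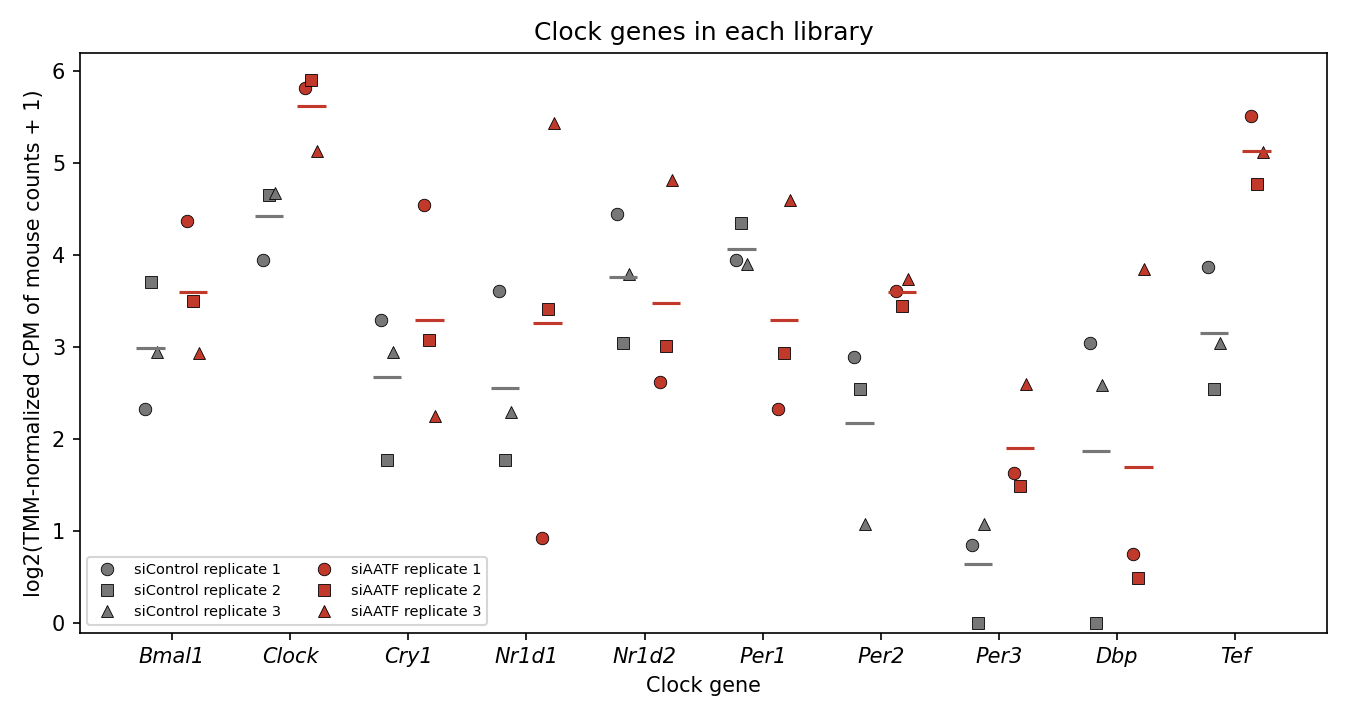
Levels of the 10 clock genes in each library, as log2(TMM-normalized CPM + 1) on the vertical axis, with siControl in grey and siAATF in red, the marker shape for the replicate number and a bar for the mean of each group (n = 3). The siAATF libraries of Clock and Tef lie above all siControl libraries, while those of Nr1d1 run from 0.897 to 42.3 CPM and those of Dbp from 0.403 to 13.4 CPM.

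Among the activators, Clock was higher in siAATF and Bmal1 did not pass the test. Identifiers and positions are those of the deposited table, on GRCm39. Clock (ENSMUSG00000029238.12, chromosome 5, 76357715 to 76452639) encodes the partner of BMAL1. Its level was 14.5, 24.2 and 24.5 CPM in the siControl libraries and 55.5, 58.7 and 34.1 CPM in the siAATF libraries, from 10 to 44 counts and 291 to 1607 counts. The groups did not overlap, although siAATF replicate 3 was nearer to siControl than the other siAATF libraries. The log2 fold change of Clock was 1.25 (SE 0.39, adjusted p = 0.0290), or 0.74 relative to all genes. With library size alone it was -0.58, or 0.73 relative to all genes. Clock did not pass with limma-voom (adjusted p = 0.0514), with upper-quartile scaling (0.0956), after thinning of all libraries to 213022 mouse counts (0.540), or without siControl replicate 1 (0.138), siControl replicate 2 (0.0597), siControl replicate 3 (0.0854) or siAATF replicate 1 (0.0533).

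Bmal1 (ENSMUSG00000055116.9, chromosome 7, 112806672 to 112913333) had 4.01, 12.1 and 6.69 CPM in siControl, from 5, 5 and 12 counts. In siAATF it had 19.6, 10.3 and 6.66 CPM, from 569, 51 and 120 counts. The groups overlapped, and among the siAATF libraries replicate 1 was highest and replicate 3 lowest. Its log2 fold change was 0.85 (SE 0.57, adjusted p = 0.274), and 0.33 without siAATF replicate 1 (adjusted p = 0.708). Npas2, a paralog of Clock that can replace it, had 2.41, 0 and 5.58 CPM in siControl and 9.87, 6.45 and 1.66 CPM in siAATF, again lowest in siAATF replicate 3 (log2 fold change 0.84, SE 0.82, adjusted p = 0.446). Its change was 1.83 without siControl replicate 3 and 0.31 without siAATF replicate 1.

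Of the Per and Cry genes, whose products close the negative arm of the loop, none of the 4 members passed the test. Per2 (ENSMUSG00000055866.10, chromosome 1, 91343704 to 91387046) came nearest to the threshold. It had 6.42, 4.83 and 1.12 CPM in siControl, from 8, 2 and 2 counts, and 11.2, 9.88 and 12.4 CPM in siAATF, from 324, 49 and 223 counts. All siAATF libraries were above all siControl libraries (log2 fold change 1.57, SE 0.60, adjusted p = 0.0637, or 1.07 relative to all genes). Per2 passed without siControl replicate 1 (2.42, adjusted p = 0.0401) and without siAATF replicate 2 (1.74, adjusted p = 0.0493). It also passed without a filter on counts (1.68, adjusted p = 0.0266) and with the replicate number as a block (1.67, adjusted p = 0.0149). With library size alone it was -0.22 (adjusted p = 0.804), or 1.09 relative to all genes. Its change was 0.91 without siControl replicate 3 (adjusted p = 0.320) and 0.86 after the thinning (adjusted p = 0.549).

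Per3 (ENSMUSG00000028957.13, chromosome 4, 151088109 to 151129122) had 1, 0 and 2 counts in siControl, or 0.803, 0 and 1.12 CPM. In siAATF it had 61, 9 and 91 counts, or 2.11, 1.82 and 5.05 CPM, all above siControl. At 0 counts, however, siControl replicate 2 may still reach 7.25 CPM, so a full separation of the groups is not shown. With 3 counts in all siControl libraries together, the summed counts gave a ratio of 3.57 (95% conditional binomial interval 1.20 to 17.5, counting error only), and the fit gave an adjusted p of 0.164.

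Per1 (ENSMUSG00000020893.18, chromosome 11, 68986043 to 69000786) had 14.5, 19.3 and 13.9 CPM in siControl and 4.04, 6.66 and 23.2 CPM in siAATF, from 117, 33 and 419 counts. In siAATF it was below every siControl library in replicates 1 and 2 and above every one in replicate 3. Its log2 fold change was -0.43 (SE 0.61, adjusted p = 0.608), and without siAATF replicate 3 it was -1.5 (adjusted p = 0.0317). With library size alone it was -2.31 (adjusted p = 0.00397), or -1.01 relative to all genes. Cry1 (ENSMUSG00000020038.11, chromosome 10, 84967564 to 85020928), which encodes a strong repressor of the CLOCK and BMAL1 pair, had 8.83, 2.42 and 6.69 CPM in siControl and 22.3, 7.46 and 3.77 CPM in siAATF, from 646, 37 and 68 counts. Here siAATF replicate 1 was the highest of all libraries and replicate 3 the lowest of its group (log2 fold change 0.77, SE 0.68, adjusted p = 0.401). Without siAATF replicate 1 its direction turned, to -0.19 (adjusted p = 0.844).

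The REV-ERB genes did not pass the test and overlapped between the groups. Nr1d1 (ENSMUSG00000020889.12, chromosome 11, 98658758 to 98666159) had 11.2, 2.42 and 3.90 CPM in siControl, from 14, 1 and 7 counts, and 0.897, 9.68 and 42.3 CPM in siAATF, from 26, 48 and 762 counts. Its siAATF libraries thus held both the lowest and the highest level of the 6 libraries. The log2 fold change was 1.48 (SE 1.06, adjusted p = 0.308), which became 2.09 without siAATF replicate 1 (adjusted p = 0.0271) and -0.27 without siAATF replicate 3 (adjusted p = 0.825). Nr1d2 (ENSMUSG00000021775.12, chromosome 14, 4230569 to 4265642) had 20.9, 7.25 and 12.8 CPM in siControl and 5.18, 7.06 and 27.1 CPM in siAATF, from 150, 35 and 489 counts. It was below all siControl libraries in siAATF replicates 1 and 2 and above them in replicate 3 (log2 fold change -0.13, SE 0.63, adjusted p = 0.900). With library size alone it was -1.97 (adjusted p = 0.0126), or -0.66 relative to all genes.

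Exons of Nr1d1 share 1694 bases with Thra, the thyroid hormone receptor gene on the opposite strand, and the sources used here do not say whether counting used the strand. Thra had 26.6, 31.7 and 18.0 CPM in siAATF replicates 1 to 3, lowest in the library in which Nr1d1 was highest. Exons of Dbp share 539 bases with Sphk2 on the opposite strand, which had 48.4, 25.8 and 47.5 CPM in these libraries. If the strand was not used, reads of the shared bases of these 2 pairs cannot be told apart. Tef and Bmal1 share 193 and 33 exon bases with genes on the opposite strand that had at most 2 counts in a library.

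The PAR bZIP genes Dbp and Tef differed from each other. Tef (ENSMUSG00000022389.16, chromosome 15, 81686622 to 81711064) had 13.6, 4.83 and 7.25 CPM in siControl, from 17, 2 and 13 counts, and 44.5, 26.2 and 33.8 CPM in siAATF, from 1290, 130 and 609 counts. Its groups were fully separate, with siAATF above (log2 fold change 1.93, SE 0.44, adjusted p = 0.00482, or 1.43 relative to all genes). With library size alone it was 0.21 (adjusted p = 0.754), or 1.52 relative to all genes. Tef did not pass without siControl replicate 3 (adjusted p = 0.0503) or after the same thinning (adjusted p = 0.0923).

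Dbp (ENSMUSG00000059824.13, chromosome 7, 45354512 to 45359627), a direct E-box target of the activator pair, had 7.23, 0 and 5.02 CPM in siControl, from 9, 0 and 9 counts. In siAATF it had 0.690, 0.403 and 13.4 CPM, from 20, 2 and 241 counts. Replicates 1 and 2 of siAATF were below both siControl libraries in which Dbp was counted, and replicate 3 was the highest of all. Its log2 fold change was 0.04 (SE 1.14, adjusted p = 0.983), and without siAATF replicate 3 it was -2.89 (adjusted p = 0.0299), so the value rests on this library.

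Other genes of the clock were read from the same fit. Of 20, 19 were tested, of which 4 were higher in siAATF, 2 were lower and 13 did not pass, with a median log2 fold change of -0.10 against 0.50 over all genes. Over all genes, 32.0% passed. The groups did not overlap for 11 of the 19, against 52.7% of all genes, so both shares are near the background. Rorb had no counts and was not tested. Scaled by library size alone, 2 were higher and 11 lower.

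Of 4 other activators tested, 2 were higher, among them Rora, which encodes a nuclear receptor that activates Bmal1 at ROREs, the sites that the REV-ERB proteins repress. Rora rose from 21.3 ± 6.26 CPM (SD, n = 3) to 143 ± 59.2 CPM (log2 fold change 2.71, adjusted p = 0.000730). Its groups did not overlap, with 18.5, 16.9 and 28.4 CPM in siControl and 106, 212 and 112 CPM in siAATF. Its change with library size alone was 0.82 (adjusted p = 0.176), or 2.12 relative to all genes.

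Of 6 other repressors, Cry2 was higher and Bhlhe41 lower. Cry2, the paralog of Cry1, rose from 3.10 ± 1.18 to 14.3 ± 3.76 CPM (SD, n = 3, log2 fold change 2.10, adjusted p = 0.00729). Cry2 did not pass with library size alone (0.35, adjusted p = 0.671, or 1.65 relative to all genes) or after thinning (adjusted p = 0.223). Bhlhe41, which encodes the E-box repressor DEC2, had 43.4, 0 and 21.8 CPM in siControl and 4.0, 1.82 and 2.33 CPM in siAATF (log2 fold change -3.08, adjusted p = 0.00572). The groups of Bhlhe41 overlapped, since siControl replicate 2 held no count. Its change was -2.24 without siControl replicate 1 (adjusted p = 0.0710), and it did not pass with limma-voom (adjusted p = 0.0554). Nfil3, a repressor at D-boxes (log2 fold change 0.94, adjusted p = 0.0907), Bhlhe40, the paralog of Bhlhe41 (-0.92, adjusted p = 0.183), and Ciart, a repressor of the activator pair (-1.25, adjusted p = 0.276), did not pass. Nfil3 passed without siAATF replicate 2 (adjusted p = 0.0426) and Bhlhe40 without siAATF replicate 1 (-1.44, adjusted p = 0.0416), while Bhlhe40 was at -0.49 without siAATF replicate 2 (adjusted p = 0.352) and at -0.62 without siControl replicate 3 (adjusted p = 0.495). Scaled by library size alone, Bhlhe40 (-2.61, adjusted p = 0.00176, or -1.30 relative to all genes) and Ciart (-3.14, adjusted p = 0.00684, or -1.84 relative to all genes) were lower.

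Hlf, the PAR bZIP relative of Dbp and Tef, had 4, 0 and 1 counts in siControl and 1474, 252 and 682 counts in siAATF, or 50.9, 50.8 and 37.8 CPM (adjusted p = 0.000106). With 5 siControl counts its log2 fold change, 4.98, is imprecise, and was 6.66 without siControl replicate 1 and 4.34 without siControl replicate 3. Of the 8 kinases and ubiquitin ligases that set the stability of the PER and CRY proteins, Csnk1e, a casein kinase gene, was lower (44.3 ± 10.1 against 18.3 ± 5.26 CPM, SD, n = 3, log2 fold change -1.26, adjusted p = 0.0199) and 7 did not pass. Csnk1e missed the threshold without siControl replicate 2 (adjusted p = 0.0679), siControl replicate 3 (0.0685), siAATF replicate 1 (0.0667) or siAATF replicate 3 (0.0549). After thinning its change was -2.57 (adjusted p = 0.00448).

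Of 16 liver genes known for rhythmic expression under the clock, 8 were higher in siAATF, 2 were lower and 6 did not pass, with a median log2 fold change of 1.61. Over all genes, 17.6% were higher and 14.4% lower. The groups did not overlap for 10 of the 16, against 52.7% of all genes. Scaled by library size alone, 4 were higher and 5 lower. Elovl3, a fatty acid elongase gene, had 3, 0 and 1 counts in siControl and 48791, 2722 and 2775 counts in siAATF (adjusted p = 0.000109). Cyp7a1, which encodes the rate-limiting enzyme of bile acid synthesis, had 11, 0 and 0 counts in siControl and 3634, 1559 and 1251 counts in siAATF (adjusted p = 0.000976). Ppara, the gene of a lipid-sensing nuclear receptor, rose from 3.07 ± 0.836 to 113 ± 79.7 CPM (SD, n = 3, log2 fold change 5.14, adjusted p = 0.000111, and 4.47 without siAATF replicate 2). Nr1i3, which encodes the xenobiotic receptor CAR, had 1 count in all of siControl and 524 counts in siAATF (ratio 34.8, 95% interval 6.22 to 1378, counting error only, adjusted p = 0.00115). The lower ones were Rgs16, a regulator of G-protein signalling (31.1 ± 18.5 to 0.833 ± 0.30 CPM, log2 fold change -5.16, adjusted p = 4.9e-05), and Nampt of the NAD salvage pathway (61.4 ± 11.4 to 22.2 ± 6.83 CPM, log2 fold change -1.47, adjusted p = 0.00941). Without siControl replicate 3, Rgs16 was at -4.54 and Nampt did not pass (adjusted p = 0.0509). After thinning, Rgs16 was at -3.54 (adjusted p = 0.00752). The sums of hepatocyte markers given above moved the same way as the genes that rose.

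**Figure D2:**
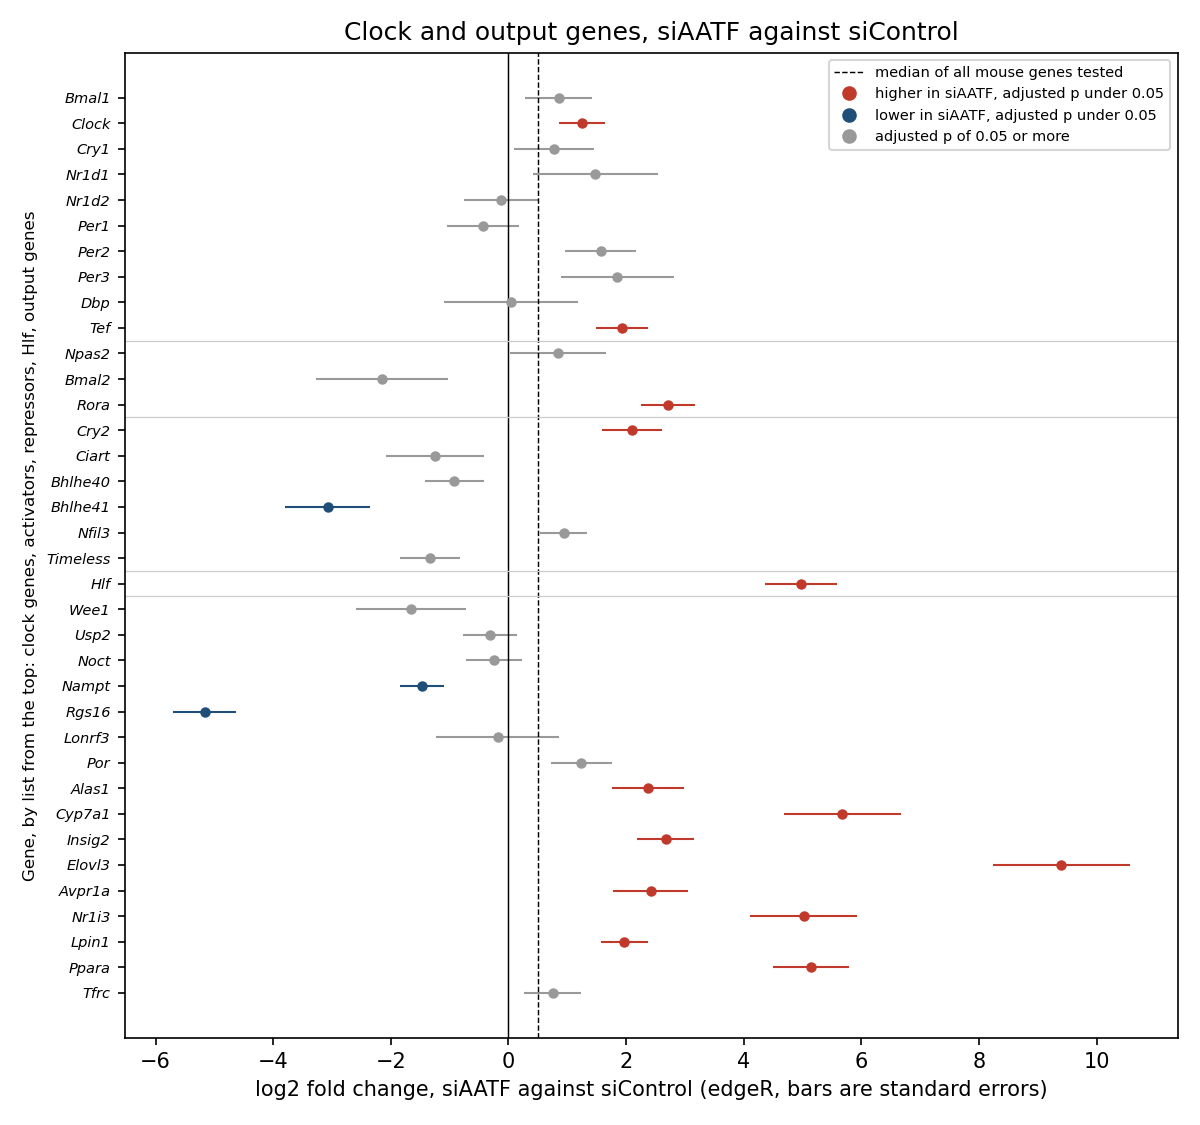
Log2 fold change of siAATF against siControl for the 10 clock genes, 3 other activators, the other repressors, Hlf and 16 liver output genes (horizontal axis, edgeR fit, bars are 1 standard error), with red for higher, blue for lower and grey for genes that did not pass, and a dashed line at the median of all genes, 0.50. Clock and Tef are the red points among the 10 clock genes, and Elovl3 lies farthest to the right.

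Several clock genes differed widely among the 3 siAATF libraries. Between siAATF replicates 3 and 1, the libraries with the most mouse counts, 5 members were higher in replicate 3, 4 were lower, and for 1 the interval held a ratio of 1. Of 12809 genes with at least 50 counts over both libraries, 35.5% were higher and 34.0% lower by the same interval, so the count of members alone is no result. Nr1d1 was 47.1 times as high in replicate 3 (95% conditional binomial interval 31.9 to 72.6) and Dbp 19.4 times (12.3 to 32.3). Per1 was 5.76 times as high (4.68 to 7.13), Nr1d2 5.24 times (4.36 to 6.34) and Per3 2.40 times (1.72 to 3.37). Dbp, both REV-ERB genes, Per1 and Per3 were thus high together in this library.

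In the other direction, Cry1 was 5.91 times as high in replicate 1 as in replicate 3 (4.60 to 7.70) and Bmal1 2.95 times (2.42 to 3.62). Clock was 1.63 times as high in replicate 1 (1.48 to 1.79) and Tef 1.32 times (1.20 to 1.45). Per2 did not differ beyond counting error, at 1.11 times in replicate 3 (0.929 to 1.32). Npas2, no member but a partner of BMAL1, was 5.93 times as high in replicate 1 (4.06 to 8.95), and Ciart 3.84 times as high in replicate 3 (2.17 to 7.07). These intervals hold counting error only, and each ratio compares 2 libraries, not conditions.

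Among these 12809 genes, the middle 50% had log2 ratios of replicate 3 to replicate 1 from -0.39 to 0.43. Ranked from the highest ratio, Nr1d1 was number 18, Dbp 56, Per1 168 and Nr1d2 190. Ranked from the lowest, Cry1 was number 114, Npas2 131 and Bmal1 428. Elovl3 was number 33 from the lowest, with 1684, 549 and 154 CPM in siAATF replicates 1 to 3. Per2 lay within the middle 50%, number 5248 from the highest, and Tef just outside its lower edge, number 3193 from the lowest.

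**Figure D3:**
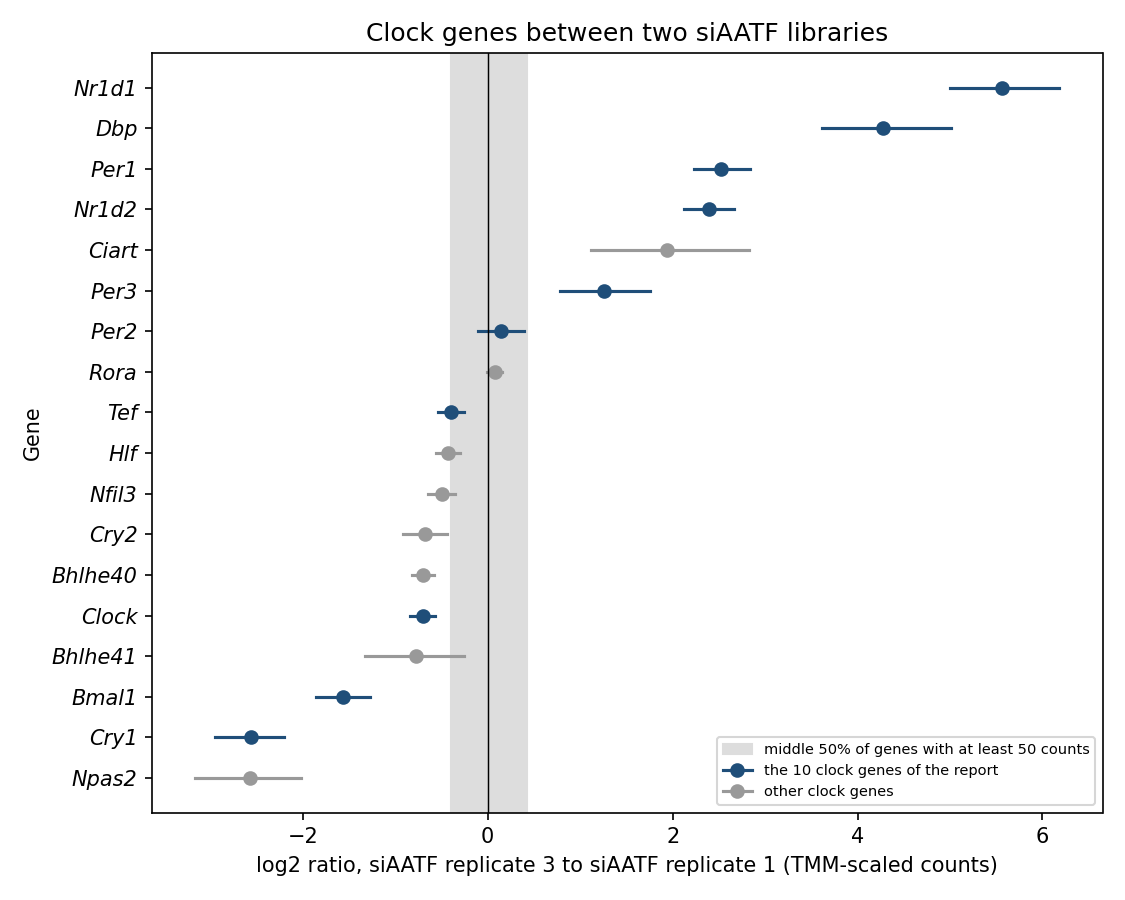
Log2 ratio of TMM-scaled counts of siAATF replicate 3 to siAATF replicate 1 (horizontal axis) for the 10 clock genes in blue and other clock genes in grey, with 95% conditional binomial intervals that cover counting error only, and a grey band for the middle 50% of 12809 genes. Nr1d1 and Dbp stand at the top, 47.1 and 19.4 times as high in replicate 3, and Cry1 and Npas2 at the bottom.

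Replicate 2 of siAATF lay between or beside them, with fewer counts. Its Nr1d1 level was 10.8 times that of replicate 1 (6.56 to 18.1), and that of replicate 3 was another 4.37 times as high (3.26 to 5.97). Bmal1 and Cry1 fell between the other libraries in replicate 2, at 1.91 (1.43 to 2.59) and 2.99 (2.14 to 4.28) times lower than in replicate 1. For Dbp, with 2 counts in replicate 2, the interval against replicate 1 held 1. Ratios of replicate 3 to replicate 2 were above 1 for Per1 (3.49, interval 2.45 to 5.14), Nr1d2 (3.84, 2.73 to 5.58) and Per3 (2.78, 1.40 to 6.28).

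The standard deviation of log2(CPM + 1) over the 3 siAATF libraries was 2.26 for Nr1d1 and 1.87 for Dbp, against a median of 0.478 over 13392 genes with a mean of at least 1 CPM. Only 0.299% and 0.732% of these genes had a larger one. Per1, Nr1d2 and Cry1 followed at 1.17, 1.17 and 1.16, where 5.30% to 5.59% of genes had a larger one. Per2, at 0.149, varied less than 92.3% of genes. In siControl, with few counts, the values were 1.64 for Dbp, 0.949 for Nr1d1 and 0.243 for Per1.

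Other features of siAATF replicate 3 stood beside this pattern. Fgb, the fibrinogen beta gene, had 4082, 3477 and 26692 CPM in siAATF replicates 1 to 3, and Cd14, a macrophage marker, 2.45, 1.61 and 108 CPM. Both were picked from the marker lists after their values were seen. The summed hepatocyte markers were 93034, 41327 and 119540 CPM in these libraries, and those of macrophages and leukocytes 111, 78.7 and 250.3 CPM. Without Fgb, the other 10 hepatocyte markers came to 88951, 37850 and 92846 CPM, and 5 of them were higher in replicate 3 than in replicate 1. Without Cd14, the other 7 macrophage and leukocyte markers came to 108, 77.1 and 143 CPM, and 5 of them were higher in replicate 3, with C1qa and Adgre1 lower. Endothelial markers summed to 204, 112 and 58.5 CPM and fibroblast markers to 542, 388 and 346 CPM in siAATF replicates 1 to 3. The fibroblast marker Dcn alone held 359, 314 and 254 CPM of the latter. Single markers did not all follow the order of these sums. Col3a1, Lum, Pdgfra and Postn of the fibroblast list were lowest in replicate 2, as were the endothelial Pecam1, Esam and Emcn. The other markers of both lists were lowest in replicate 3. Their part in the differences of the clock genes was not tested.

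Ratios of 2 members within a library are free of any scaling between libraries. The log2 ratio of Nr1d1 to Bmal1 stood at 1.40, -1.87 and -0.74 within siControl and at -4.43, -0.09 and 2.66 within siAATF, a range of 3.27 against 7.09. Repressor and target were thus in opposite order in siAATF replicates 1 and 3. The ratio of Dbp to Bmal1 was 0.79, -3.46 and -0.40 in siControl and -4.80, -4.36 and 1.00 in siAATF. For Per3 to Bmal1, it was -1.87, -3.46 and -2.32 in siControl and -3.21, -2.44 and -0.40 in siAATF. In siControl replicate 2 these ratios rest on 5 counts of Bmal1, 1 of Nr1d1 and 0 of Dbp and Per3. Where a gene had 0 counts, the 0.5 added to each count sets the ratio, so the siControl ranges are uncertain.

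Of the 8 ratios examined, Bmal1 to Clock, the members of the activator pair, had the smallest range in siAATF, 1.00. This pair had log2 ratios of -1.75, -0.93 and -1.83 in siControl and -1.5, -2.50 and -2.35 in siAATF, always with more counts of Clock. For Nr1d1 to Nr1d2, the values ran -0.87, -1.22 and -1.65 in siControl and -2.51, 0.45 and 0.64 in siAATF. Dbp to Tef had -0.88, -2.32 and -0.51 in siControl and -5.98, -5.71 and -1.34 in siAATF, with more counts of Tef in each library. In siControl replicate 2 this ratio compared 0 counts of Dbp with 2 of Tef. Per1 to Per3 had 3.62, 4.09 and 3.35 in siControl and 0.93, 1.82 and 2.20 in siAATF, and is the one of these ratios in which the groups did not overlap. It rests on 3 counts of Per3 in siControl. Per2 to Cry1 had -0.44, 0.74 and -2.32 in siControl and -0.99, 0.40 and 1.71 in siAATF.

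**Figure D4:**
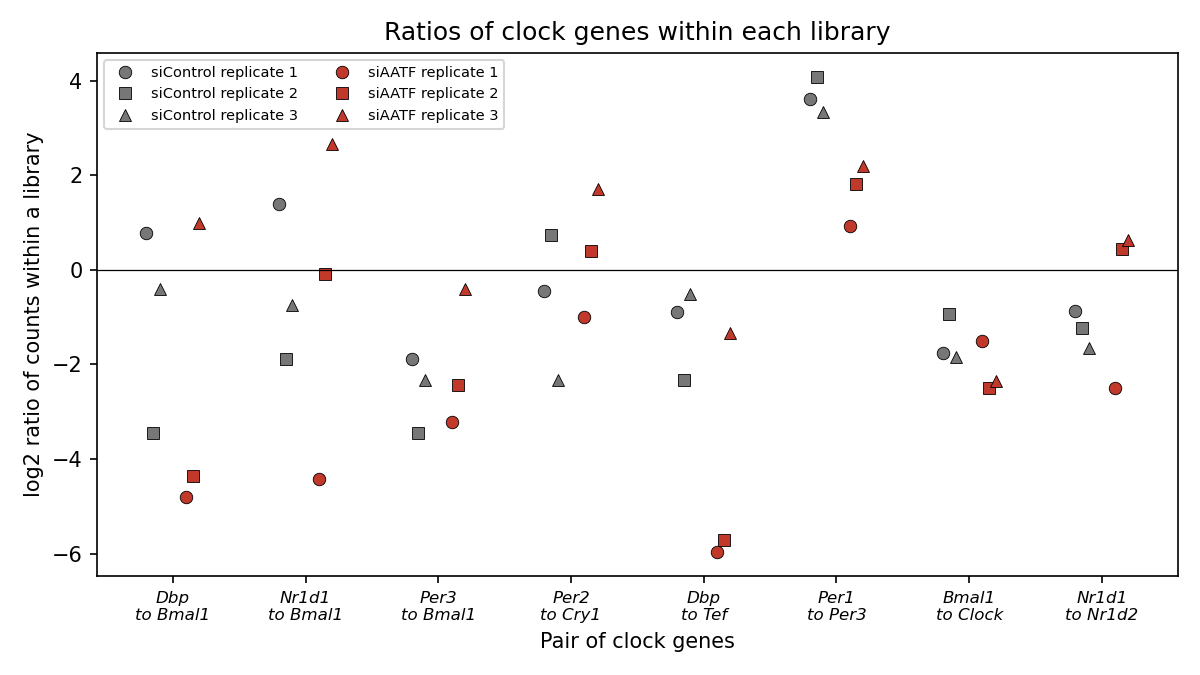
Log2 ratio of the counts of 2 clock genes within each library (vertical axis, 0.5 added to each count), with siControl in grey, siAATF in red and the marker shape for the replicate number. The ratio of Nr1d1 to Bmal1 runs from -4.43 to 2.66 among the siAATF libraries, and Per1 to Per3 is the pair in which the groups do not overlap.

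Per kb of the gene length in the deposited table, Tef had the highest mean of the members in siAATF, 7.40 ± 1.95 CPM per kb (SD, n = 3). Within single siAATF libraries, Tef was first in replicate 1 only. It was behind Clock in replicate 2 (5.57 against 5.91) and behind Nr1d1 and Dbp in replicate 3 (7.17 against 15.5 and 7.28). Next in mean level were Nr1d1 (6.47 ± 8.01), Clock (4.98 ± 1.35), Bmal1 (3.95 ± 2.17) and Cry1 (3.69 ± 3.24 CPM per kb). Then came Nr1d2 (2.81 ± 2.61), Dbp (2.62 ± 4.03), Per1 (2.01 ± 1.85), Per2 (1.91 ± 0.213) and Per3 (0.498 ± 0.298 CPM per kb). In siControl, Nr1d2 was first at 2.93 CPM per kb and Per3 last at 0.107 CPM per kb, with the 7 members from Per1 to Tef between 2.83 and 1.82 and Per2 at 0.707 CPM per kb. In siAATF, Per2 and Per3 were the neighbours in this order whose libraries did not overlap, and all other neighbours overlapped. The same held in siControl by the numbers, but there Per2 and Per3 were not resolved. In siControl replicate 3 they had 0.191 and 0.186 CPM per kb. Both values rest on 2 counts, so only the gene lengths set them apart.

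Genes outside every list were compared with Nr1d1, Dbp and Bmal1 by the root mean square difference of their centred log2(CPM + 1) levels over the 6 libraries, among 9392 genes with a mean of at least 50 counts. Nearest to Nr1d1 were Cxcl1, a chemokine gene (0.560), Cfhr3 (0.570) and Slc13a3 (0.621). Cxcl1 had 32.9, 14.5 and 26.2 CPM in siControl and 5.25, 16.3 and 137 CPM in siAATF, so it too was lowest in siAATF replicate 1 and highest in replicate 3. Nearest to Dbp were Gm6166 (0.468), 1810055G02Rik (0.641) and Gm7694 (0.661), of which Gm6166 had 4.42, 2.22 and 36.3 CPM in siAATF. Nearest to Bmal1 were Ptprb (0.279), Sfxn5 (0.281) and Chchd4 (0.284), and Ptprb had 127, 105 and 38.4 CPM in siAATF. The 6 points share library and depth, and the likeness is a description.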

How the data were processed

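Liver RNA in 6 libraries, 3 labelled siControl and 3 labelled siAATF, was prepared with a SMART-Seq kit, which copies cDNA by PCR. The authors trimmed reads with Cutadapt, aligned them with STAR 2.7.11 to the joined human and mouse genomes, dropped multi-mapped reads and reads that fitted both species, and counted genes with featureCounts 2.0.1. The deposited counts were neither normalized nor filtered. Mouse identifiers were named from GENCODE vM39 (56323 of 56884 matched), and coordinates are those deposited (GRCm39). Human counts gave depth only.

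The main test was edgeR 4.0.16 (quasi-likelihood, TMM, R 4.3.3) on genes whose counts summed to 10 or more, with the group as the only term, and 0.05 as the threshold of adjusted p. CPM used TMM-scaled mouse totals. Ratios within a library added 0.5 to each count, and profiles added 1 CPM. The fit was also run on simulated counts in which few genes changed. That run cannot test the scaling between groups that differ in as many genes as these.

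Alternatives were DESeq2 1.42.0 (the authors' tool), limma-voom (limma 3.58.1), other scalings and filters, thinning, leaving out each library, the replicate number as a block, and the criteria of the study. The text names all members. From the other lists it names genes that passed, at most the 4 with the largest change in each direction, and Npas2, Nfil3, Bhlhe40 and Ciart whatever their result. One gene of these lists is counted but not reported here. It also names the 3 genes nearest in profile to Dbp, Nr1d1 and Bmal1. The members and lists were chosen with earlier results of these data known. Promoters were read from the GRCm39 genome with Python 3.11.15.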

Additional observations from a re-analysis of the deposited data

How the results depend on the processing

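The number of the 10 clock genes that passed, 2 as reported, was 1 with limma-voom, 1 with upper-quartile scaling, 1 where at least 10 counts were required in every library (1 member was then tested), 4 without a filter, 0 after thinning (7 tested) and 0 by an unadjusted p under 0.05 with an absolute log2 fold change of at least 2, which 26.7% of all genes met. It ran from 0 to 4 as single libraries were left out. Library size alone gave 2, both lower (Per1 and Nr1d2). Of the other clock genes, 6 as reported, 13 passed with library size alone and 1 with at least 10 counts in every library (6 tested), and of the output genes, 10 as reported, 2 did under that filter (3 tested).

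Over 147 values of single members under an alternative, 108 kept their direction and side of the threshold. The log2 fold change of Dbp, 0.04 as reported, was -1.11 with limma-voom, -0.034 with DESeq2, -0.11 with RLE, -0.27 with upper-quartile scaling, -1.81 with library size alone, -0.14 with filterByExpr, and -2.89 to 0.60 with a library left out. With library size alone it was -0.22 for Per2, -0.88 for Bmal1, -0.58 for Clock, -0.86 for Cry1 and -0.40 for Nr1d1. With single libraries left out, it was -1.5 to 0.010 for Per1, -0.19 to 1.27 for Cry1, -0.27 to 2.33 for Nr1d1 and -1.18 to 0.30 for Nr1d2. The cause was not tested.

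With the replicate number as a block, 3 members passed (Per2, log2 fold change 1.67, adjusted p = 0.0149, beside Tef and Clock), and Dbp turned to -0.66. Nfil3 (1.00, adjusted p = 0.0369) and Bhlhe40 (-1.08, adjusted p = 0.0229) also passed. Same-numbered libraries correlated by 0.11, 0.15 and -0.02 in their deviations from the group means, so the numbers were not taken to pair them. The depth of siControl, 32 to 149 counts over the 10 members, limits each value.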
